A study of Mus musculus with 3 samples.

Results

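Laminins and integrins were followed across the epithelial, stromal, vascular and immune cells of the adult mouse lacrimal gland (LG). The genes were taken by symbol from the deposited gene list: every laminin alpha, beta or gamma chain (*Lama*, *Lamb* or *Lamc* with a number) and every integrin alpha or beta subunit (*Itga* or *Itgb*), leaving out symbols that contain bp (integrin-binding proteins) or end in l1. This gave 38 genes with at least 1 count, 11 laminin chains and 27 integrin subunits, of 32285 genes listed, 20471 of which were detected in the cells kept. Of the 38 genes, 36 had at least 30 counts over all cells, and *Itgad* and *Itgb2l* had fewer.

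Laminins are trimers of an alpha, a beta and a gamma chain that assemble into the sheet-like core of basement membranes, the thin matrix on which epithelia, muscle cells and endothelium rest. Integrins are heterodimers of an alpha and a beta subunit that span the plasma membrane and tie this matrix, or ligands on other cells, to the cytoskeleton. In exocrine glands the basement membrane surrounds acini, ducts and the myoepithelial cells (MECs) wrapped around them, and in leukocytes a separate group of integrins serves adhesion to vessel walls and to other cells.

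The study profiled dissociated LGs by droplet scRNAseq, counting unique molecular identifiers (UMIs, short barcodes that mark single RNA molecules before amplification). There were 3 libraries of C57BL/6J mice aged 2 months, 1 female and 2 male, each made from the pooled glands of 3 animals. The female library was made at another core and on another preparation day than both male libraries, so differences of sex, of core and of preparation day cannot be told apart, and no test of sex was made on a single female library. Every comparison here is between cell classes of the same libraries. Its p-values rest on the spread between these 3 libraries, estimated for each gene with help from all genes tested. They are therefore not a measure of the spread of 1 gene alone, and their sizes are not alike between comparisons.

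After filtering, 7652, 5295 and 5397 cells remained, in the order female, male 1, male 2, which values of the 3 libraries follow throughout. They held 55390678, 37641576 and 41269825 UMIs, and 8 to 13 cell barcodes were shared between any pair of libraries. The 38 genes took 30379, 5121 and 3775 of these UMIs. Cells were clustered without the 38 genes and their listed partners and named from marker genes, a basis that "-like" stands for in a class name. A level is the number of UMIs of a gene per 1000000 UMIs of the class (CPM), with tear-product and mitochondrial genes left out of the total, because the RNA of tear products was found in all classes. Such free RNA, taken from barcodes of 500 to 1000 UMIs, was estimated to make up 20.5% to 26.3% of the UMIs of acinar-like cells, 61.2% to 78.5% of those of *Ltf+*-like cells and 32.4% to 75.0% of those of the other classes described. From 4 of 8 (acinar-like) and 5 of 10 (MEC-like) to all markers (fibroblast-like, endothelial-like, mural-like and myeloid-like) of each class were higher in that class than in every other. MEC-like and duct-like cells share the basal keratins of both lists, and mural-like cells share the contractile genes of the MEC list. Lymphoid-like cells held B or plasma cell markers at a summed level of 53.2 to 29555, and the part of these cells in the lymphoid values was not tested.

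By mean level over the 3 libraries, and among the 9 classes, 8 of the 36 genes were highest in fibroblast-like cells, 7 in MEC-like cells, 7 in mural-like cells, 6 in lymphoid-like cells, 4 in myeloid-like cells, 2 in duct-like cells and 1 each in *Ltf+*-like and endothelial-like cells. None was highest in acinar-like cells, where the 38 genes together stood at 174, 194 and 192 CPM. The same sum was 716, 732 and 682 in *Ltf+*-like cells, 2156, 1475 and 1527 in the ducts, 2650, 2139 and 1929 among MEC-like cells and 2464, 2409 and 1946 in fibroblast-like cells. Acinar-like cells were thus the class with the lowest share of laminin and integrin RNA in every library. The sums of endothelial-like (1752, 1404 and 1180), mural-like (2800, 2175 and 1486), myeloid-like (1300, 822 and 830) and lymphoid-like (1325, 742 and 847) cells lay between *Ltf+*-like and MEC-like cells, except that the mural-like sum was the highest of all in the female library and in male library 1 came after fibroblast-like cells.

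**Figure D1:**
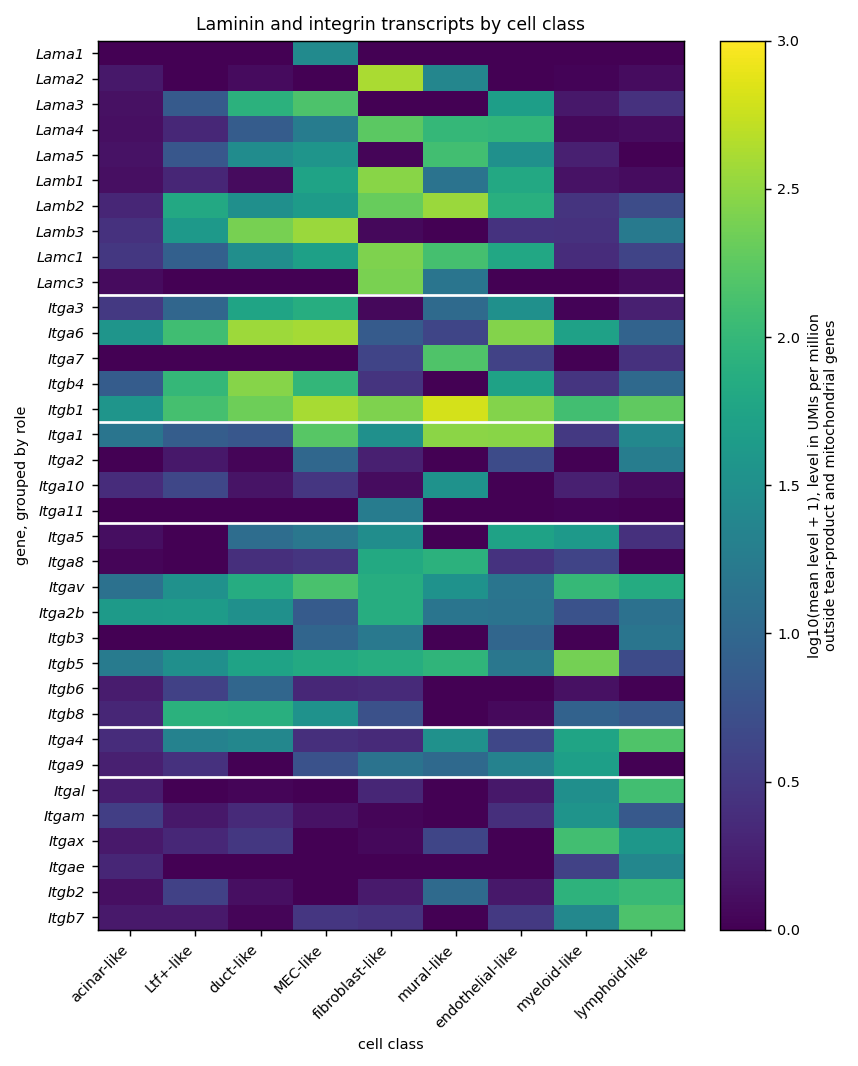
Mean level of the genes plotted in the 9 cell classes (rows: genes grouped by role; columns: classes; colour: log-scaled CPM outside tear-product and mitochondrial genes, mean of 3 libraries). Lighter colours are higher levels. The acinar column is dark for nearly all genes, laminin chains are light in the fibroblast, MEC, duct and vascular columns, and the leukocyte integrins in both immune columns.

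Some of these genes are neighbours in the genome. On chromosome 13 (GRCm38, GENCODE M21, minus strand), *Itga2* (chr13:114833081-114932100) and *Itga1* (chr13:114953096-115101964) lie 20996 bases apart with no protein-coding gene between them, and among the 9 classes *Itga2* was highest in lymphoid-like and *Itga1* in mural-like cells. On chromosome 7, *Itgam* (chr7:128062640-128118491) and *Itgax* (chr7:128129547-128150657) follow each other on the plus strand, and of the 9 classes both were highest in myeloid-like cells. Exons of *Itga1*, *Itga10*, *Itgad* and *Itgam* overlap those of another annotated gene on the same strand, so their counts are less certain. The bases upstream of the start site were read for the genes that RefSeq (GRCm38.p6) gave a promoter for, 24 of the 38 genes with 27 windows of 250 bases, and 3 windows are shown for genes of the immune and epithelial patterns described below. *Itgam* and *Itgax* were shown as the adjacent myeloid pair and *Lamb3* as the epithelial laminin chain with counts in lymphoid-like cells. Capitals mark a match to GAGGAAG, the purine-rich core bound by ETS factors such as PU.1, or to TGANTCA, the site of AP-1, searched on both strands. The *Lamb3* window ends at the RefSeq start and lies within the longer GENCODE gene (chr1:193207699-193343878).
*Itgam*, chr7:128062390-128062639, plus strand: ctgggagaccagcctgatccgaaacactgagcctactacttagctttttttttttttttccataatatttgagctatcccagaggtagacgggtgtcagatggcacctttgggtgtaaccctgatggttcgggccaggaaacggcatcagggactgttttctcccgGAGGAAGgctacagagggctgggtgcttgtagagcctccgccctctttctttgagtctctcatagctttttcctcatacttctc
*Itgax*, chr7:128129300-128129549, plus strand: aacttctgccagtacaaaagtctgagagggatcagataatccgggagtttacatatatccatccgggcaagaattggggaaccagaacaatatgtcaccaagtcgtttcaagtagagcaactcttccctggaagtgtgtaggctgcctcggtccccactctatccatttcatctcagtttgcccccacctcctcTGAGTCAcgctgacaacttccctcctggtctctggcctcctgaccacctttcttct
*Lamb3*, chr1:193301744-193301993, plus strand: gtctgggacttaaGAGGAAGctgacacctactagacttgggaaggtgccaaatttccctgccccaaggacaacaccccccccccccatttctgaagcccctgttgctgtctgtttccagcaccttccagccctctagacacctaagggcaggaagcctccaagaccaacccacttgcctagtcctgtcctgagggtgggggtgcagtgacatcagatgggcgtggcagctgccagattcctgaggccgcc
GAGGAAG was present in 8 of the 27 windows (29.6%), those of *Itga11*, *Itga2b*, *Itgam*, *Itgav*, *Itgb2l*, *Itgb6*, *Lama2* and *Lamb3*, and in 10.6% of all 32851 windows of this length. These 8 genes included genes of fibroblast-like, myeloid-like, duct-like and MEC-like cells. TGANTCA was present in 1 of the 27 windows (3.70%), that of *Itgax*, and in 6.75% of all windows. A match is a run of letters and not a measured site of binding.

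Epithelial cells as a whole were compared with all other cells first, to ask which laminin chains and integrins the epithelium made at a higher level than its surroundings. Genes were tested on UMIs summed per library and arm (edgeR's quasi-likelihood test with the library as a block, Benjamini-Hochberg adjustment over all genes tested), a call is an adjusted p under 0.05, log2 fold changes are given ± SE over 3 libraries, and a pooled arm is a mixture set by its largest classes. Of the 38 genes, 32 passed the filter on low counts, 8 were higher and 23 lower in epithelial cells, where 23.8% and 28.3% (together 52%) of the 13413 genes tested were called higher and lower. With scaling by total UMIs the counts were 2 higher and 26 lower, and the median of all genes moved from -0.03 to -1.81. A gene seen in only 1 arm passes this filter through that arm alone, so counts among tested genes are descriptions here and in the comparisons that follow.

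Higher in the pooled epithelium were *Lamb3*, a beta chain known from epithelial basement membranes, and *Itgb4*, the integrin subunit of hemidesmosomes. *Lamb3* stood at 113, 32.1 and 22.7 CPM in epithelial cells and at 2.94, 1.5 and 3.9 in all other cells (log2 fold change 5.0 ± 0.53, adjusted p = 4.52e-04). *Itgb4* stood at 115, 29.6 and 27.1 against 7.49, 12.5 and 11.7 (log2 fold change 2.73 ± 0.65, adjusted p = 0.0131). The epithelial values of both genes were highest in the female library, which held 1079 duct-like cells against 325 and 271 in the male libraries. In each library the pooled epithelium lay above all other cells pooled. For *Itgb4*, endothelial-like cells alone (38.6, 67.5 and 51.1) lay above the pooled epithelium in both male libraries. Acinar-like cells held *Itgb4* at 8.88, 4.74 and 6.04. *Itgb8*, which binds latent TGF-beta with alpha V, followed the same direction (log2 fold change 2.62 ± 0.31, adjusted p = 7.18e-04), as did *Itga3*, a laminin receptor subunit (log2 fold change 1.82 ± 0.48, adjusted p = 0.0193). *Lama3*, an alpha chain that joins *Lamb3*, was higher in the epithelium (log2 fold change 1.73 ± 0.54, adjusted p = 0.0354), and *Itga6*, the partner of *Itgb4*, likewise (log2 fold change 0.98 ± 0.24, adjusted p = 0.0143), but with total UMIs both values turned to -0.05 and -0.81, or 1.76 and 1.00 above the median of all genes. The called value of *Itga2b* (0.90) turned to -0.88 on that scale. Its level in acinar-like cells (26.5, 48.7 and 52.5) lay beside that of the free RNA (31.2, 47.4 and 49.7), and whether these cells made it was not tested.

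The chains of the stroma and the integrins of leukocytes were lower in the epithelium. *Lamc3*, the gamma chain known from nerve, vessel and fibroblast matrices, stood at 0.269, 0.179 and 0 in epithelial cells and at 53.5, 102 and 57.8 in all other cells (log2 fold change -8.06 ± 0.42, adjusted p = 5.67e-05). *Lama2*, the alpha chain of muscle and mesenchymal basement membranes, stood at 0.538, 0.179 and 0.695 against 152, 139.8 and 81.2 (log2 fold change -7.59 ± 0.36, adjusted p = 4.61e-05). *Itga11*, a receptor for fibrillar collagen, had no count in any epithelial cell and 124 in fibroblast-like cells, which puts it at least 63.5-fold lower (adjusted p = 0.00329). *Itga7*, a laminin receptor subunit of muscle, also had no epithelial count and was at least 28.5-fold lower (adjusted p = 0.00613), and both genes were under the filter without the female library. Also lower were *Itga8* (-5.79), *Lama4* (-4.58), *Lamb1* (-4.46), *Itga9* (-4.37) and *Itga5* (-3.73). Among leukocyte integrins, *Itgb2*, the beta subunit of the leukocyte adhesion receptors, was lower (log2 fold change -6.0 ± 0.57, adjusted p = 2.90e-04), with *Itgax* at -5.67, *Itgal* at -5.18 and *Itgb7* at -5.0 on the log2 scale. *Lama5* did not pass the test (0.14, adjusted p = 0.866): epithelial cells stood at 15.4, 2.69 and 2.43 and all others at 8.11, 6.99 and 6.5, above in the female library and below in both male libraries.

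MEC-like cells, the contractile cells that embrace the acini, were compared with all other epithelial cells. They held *Lama1* and *Lamb1*, which were at or near 0 in the other epithelial cells, beside the chains they shared with ducts. *Lama1*, the alpha chain of the first embryonic basement membranes, stood at 22.3, 37.2 and 19 CPM and had no count in any other class, so that it was at least 176-fold higher than in the other epithelial cells (adjusted p = 0.00108). *Lamb1* stood at 55.2, 47.3 and 61.6 in MEC-like cells and at 0.97, 0.189 and 0 in the others (log2 fold change 6.09 ± 0.67, adjusted p = 3.13e-04). The markers of fibroblasts, in which *Lamb1* was highest (416, 269 and 185), had a summed level of 602 to 757 in MEC-like and 31189 to 37747 in fibroblast-like cells. The part of fibroblast RNA in the MEC-like level of *Lamb1* was not tested.

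In all, 22 of the 38 genes were tested, 17 were higher and 2 lower in MEC-like cells, against 14.1% and 16.4% (together 30.4%) of the 11190 genes tested, and 20 were higher and none lower with total UMIs. The median log2 fold change was 2.26 over the 22 genes and -0.09 over all genes (2.15 with total UMIs). *Lama3* stood at 194, 125 and 119 in MEC-like and 35.7, 4.16 and 2.52 in other epithelial cells (log2 fold change 3.26 ± 0.57, adjusted p = 0.00335), *Lamb3* at 394, 338 and 318 against 89.3, 14.9 and 11.5 (log2 fold change 3.03 ± 0.51, adjusted p = 0.00295). *Lamc1* (log2 fold change 2.35 ± 0.41, adjusted p = 0.00352), the common gamma chain of most laminins, and *Lama4* (log2 fold change 2.99 ± 0.62, adjusted p = 0.00753), an alpha chain best known from vessels, were higher as well, and *Lama4* was under the filter without the female library. *Lama5*, the widespread alpha chain of adult epithelia, was called at 2.42 ± 0.73 (adjusted p = 0.0366), and lost the call without male library 1 (adjusted p = 0.0766) or male library 2 (adjusted p = 0.109). *Lama3* and *Lamb3* thus lay above the other epithelial cells in each library.

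Of the integrins, receptors for collagen, laminin and RGD ligands were higher in MEC-like cells. *Itga1*, which with *Itgb1* binds collagen of basement membranes, stood at 182, 162 and 156 in MEC-like cells and at 10.6, 12.9 and 12.3 in the other epithelial cells (log2 fold change 3.1 ± 0.22, adjusted p = 4.28e-05), and in duct-like cells, which otherwise share much of the MEC pattern, it stood at 5.79, 0 and 10.6. *Itgb1*, the beta subunit shared by most matrix receptors, stood at 508, 372 and 327 against 108, 55.3 and 51 (log2 fold change 1.82 ± 0.21, adjusted p = 4.49e-04). *Itga3* (log2 fold change 2.37 ± 0.45, adjusted p = 0.00499), *Itga6* (log2 fold change 1.57 ± 0.28, adjusted p = 0.00384) and *Itgav*, the alpha subunit of receptors for RGD ligands such as fibronectin (log2 fold change 1.88 ± 0.24, adjusted p = 6.66e-04), were higher. *Itga5*, the alpha subunit of the fibronectin receptor, stood at 12.9, 16.9 and 14.2 (log2 fold change 3.06 ± 0.69, adjusted p = 0.0108), and without male library 1 its adjusted p was 0.0644. Lower in MEC-like cells were *Itga2b* (log2 fold change -2.94 ± 0.46, adjusted p = 0.00181) and *Itga4*, a subunit of lymphocyte receptors that had 2 counts in MEC-like cells (ratio of other epithelial cells to MEC-like cells 6.33 (95% counting interval 1.73 to 52.6), adjusted p = 0.0355, 0.0526 without male library 2, and under the filter without the female library). *Itgb4* stood at 116, 98 and 75.9 in MEC-like and 115, 25.7 and 25.2 in other epithelial cells and did not pass the test (0.34 ± 0.40, adjusted p = 0.571).

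The partners of these genes were followed with 4 lists. Of 16 listed partners in the basement membrane (type IV and XVIII collagens, nidogens, perlecan, agrin and others), 12 were tested and 9 were higher and none lower in MEC-like cells, among them *Col4a1* (5.75), *Col4a2* (5.31) and *Hspg2*, which encodes perlecan (3.43). Of the 10 other laminin receptors and parts of hemidesmosomes, 7 were higher and none lower, including the dystroglycan gene *Dag1* (1.72) and *Col17a1* (2.68). Of 16 adaptors that link integrins to actin, 13 were tested and 7 were higher and none lower, including zyxin, *Zyx* (3.53), vinculin, *Vcl* (2.48), and talin, *Tln1* (2.19). Of 10 other ligands of integrins, 5 were tested, and *Thbs1* (2.84) and *Vcam1* (2.85) were higher.

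**Figure D2:**
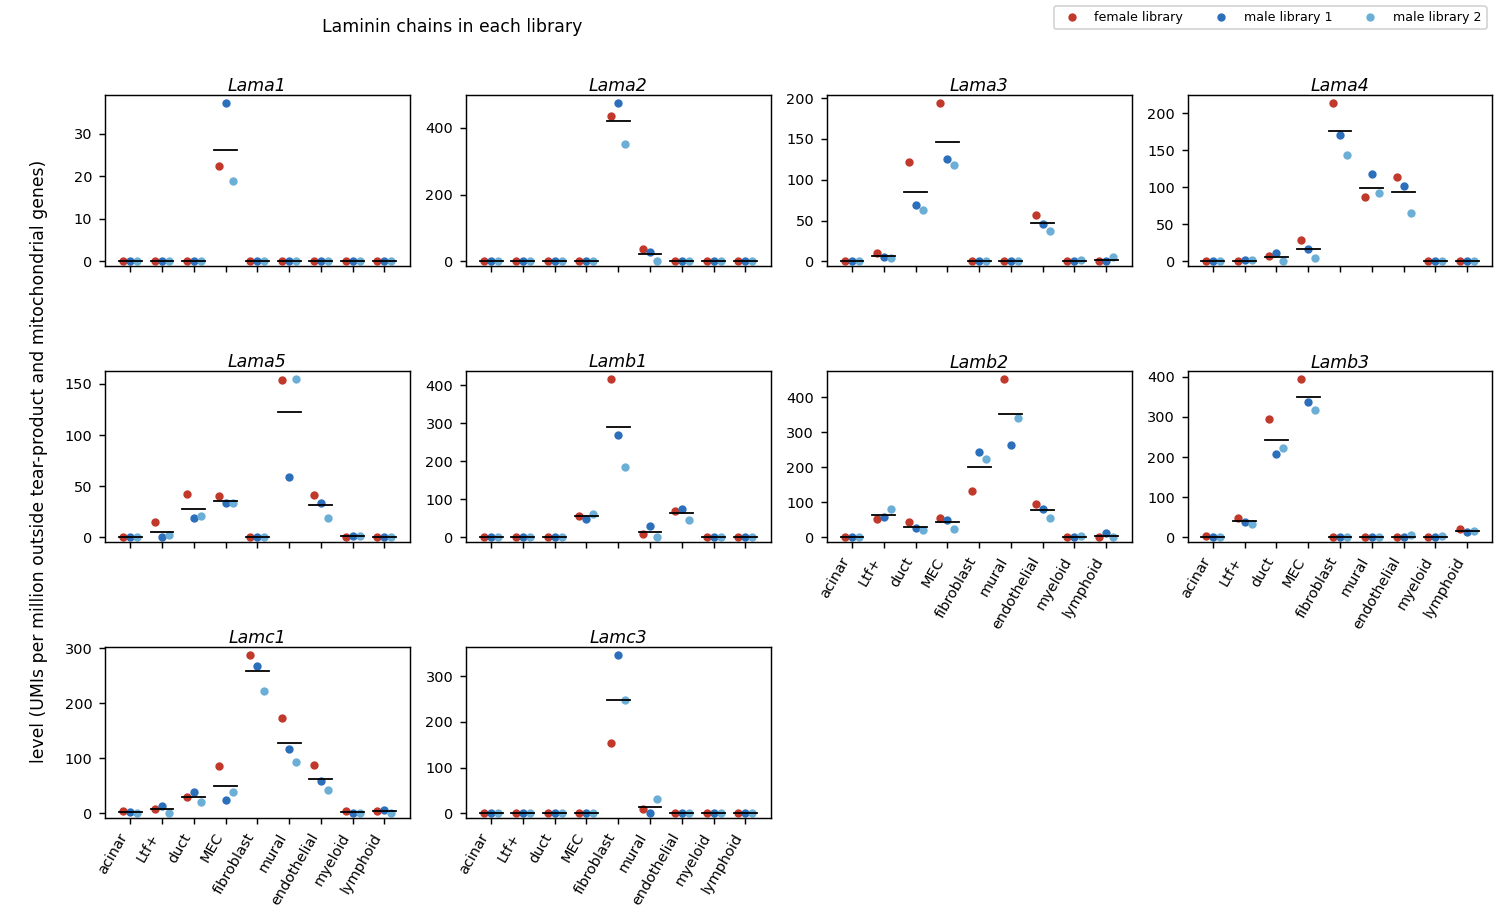
Levels of laminin chains by class, 1 panel per chain (vertical axis: CPM outside tear-product and mitochondrial genes; points: the 3 libraries; lines: their mean). *Lama1* has points above 0 in MEC only, *Lama2* and *Lamc3* are high in fibroblasts, and *Lama3* and *Lamb3* are high in ducts and MEC.

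Duct-like cells, the lining of the multilayered ducts, were compared with all other epithelial cells in the same way. They held the genes of the hemidesmosome, the junction by which an epithelium is riveted to laminin. *Itgb4* stood at 365, 230.4 and 248 in duct-like cells and at 25.8, 19.7 and 19.6 in the others (log2 fold change 2.95 ± 0.17, adjusted p = 9.38e-08). *Itga6* stood at 445, 284 and 364 against 88, 66.4 and 51.7 (log2 fold change 1.67 ± 0.19, adjusted p = 1.16e-05), and of the partners *Col17a1* (3.14), *Dst* (1.89), *Plec* (1.77) and *Cd151* (0.78), known parts of that junction or its surroundings, were higher as well. In each library both subunits of this integrin were above the other epithelial cells.

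The filter left 19 of the 38 genes, 13 were higher and 2 lower in duct-like cells, against 15.8% and 20.1% (together 35.8%) of the 10861 genes tested, and with total UMIs 18 were higher and none lower while the median of all genes moved from -0.04 to 2.27. *Lamb3* stood at 295, 207 and 222 in duct-like and 47.4, 23.5 and 16 in other epithelial cells (log2 fold change 2.35 ± 0.25, adjusted p = 8.40e-06). *Lama3* (log2 fold change 2.08 ± 0.30, adjusted p = 1.14e-04) and *Lama5* (log2 fold change 2.19 ± 0.41, adjusted p = 7.98e-04) were higher with it. *Lamb2*, a beta chain of vessels and neuromuscular junctions, stood at 42.9, 26.9 and 21.1 in duct-like cells and was called (log2 fold change 0.89 ± 0.31, adjusted p = 0.0381), but not without the female library (adjusted p = 0.304) or male library 1 (adjusted p = 0.0907). *Lamb1*, by contrast, had 2 counts in duct-like cells, whose level was 0.681, 0 and 0.

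Among the receptors, *Itgb8* stood at 137, 57.6 and 37 in duct-like cells (log2 fold change 2.12 ± 0.28, adjusted p = 4.55e-05), *Itga3* at 56.8, 53.8 and 58.1 (log2 fold change 2.02 ± 0.35, adjusted p = 4.70e-04) and *Itga4* at 43.6, 11.5 and 15.8 (log2 fold change 2.08 ± 0.40, adjusted p = 0.00103). *Itgav* (log2 fold change 0.86 ± 0.22, adjusted p = 0.00704) and *Itgb1* (log2 fold change 0.84 ± 0.17, adjusted p = 0.00169) were higher by less than 1 on the log2 scale. *Itgb5*, a partner of alpha V, was called at 0.64 ± 0.22 (adjusted p = 0.0393), and lost the call without the female library (adjusted p = 0.153), male library 1 (adjusted p = 0.185) or male library 2 (adjusted p = 0.0673). *Itga1* was lower (log2 fold change -3.26 ± 0.44, adjusted p = 6.70e-05). *Itga2b* was called lower (log2 fold change -1.16 ± 0.25, adjusted p = 0.00269), a direction that turned to 1.15 with total UMIs (adjusted p = 0.00325) and its level was 20.1, 46.1 and 26.4 in duct-like cells and 31.2, 47.4 and 49.7 in free RNA.

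Duct-like cells with a count of *Krt5* or *Krt14*, keratins of the basal layer, were then set against duct-like cells without one. No gene was called, which is 0% of the 2737 genes tested, and of the 10 laminin and integrin genes tested none was called and none had an unadjusted p under 0.05 (DESeq2 called none of the 10 and 18 of all genes). *Lamb3* stood at 298, 198 and 262 with a basal keratin and at 254, 310.0 and 35 without, *Itgb4* at 370.5, 233 and 262 against 308, 207 and 210.3. The cells without a keratin count gave few counts, 72 of *Lamb3* against 888, which limits the differences that this depth could show.

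*Ltf+*-like cells, luminal cells marked by lactotransferrin, were compared with the other epithelial cells as the third part of the epithelium. They held *Lamb2* and *Itgb8* at higher levels than the other epithelial cells pooled, and *Lamb3* (47.1, 39 and 32.3) with little *Lama3*. *Lamb2* stood at 52, 57.6 and 80.8 in *Ltf+*-like cells and at 17.2, 5.01 and 2.88 in the others (log2 fold change 2.58 ± 0.47, adjusted p = 0.00842), and *Itgb8* at 76.3, 94.8 and 75.4 against 42.4, 5.81 and 2.69 (log2 fold change 2.37 ± 0.59, adjusted p = 0.0303). *Lama3* stood at 9.75, 5.08 and 3.59 against 49.97, 11.2 and 7.11 (log2 fold change -2.26 ± 0.38, adjusted p = 0.00551) and *Itga1* at 8.12, 6.77 and 5.39 against 24.6, 22.4 and 18.8 (log2 fold change -2.22 ± 0.33, adjusted p = 0.00321). With total UMIs neither was called (log2 values -0.91 and -0.85, adjusted p = 0.240 and 0.234). *Lama3* also lost its call without the library block (adjusted p = 0.178) and with more doublets removed (adjusted p = 0.0509). Acinar-like cells held less *Lama3* (0.888, 0.226 and 0) than *Ltf+*-like cells in each library. Both higher genes, picked by their calls in these libraries, were above the pooled other cells in each library and the groups did not overlap. Duct-like cells alone held *Itgb8* at 137, 57.6 and 37, above *Ltf+*-like cells in the female library and below them in both male libraries. Acinar-like cells held it at 2.37, 0.677 and 0.208.

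There were 15 of the 38 genes to test, and 2 were called higher and 3 lower, against 6.51% and 7.3% (together 13.8%) of the 10721 genes tested. With total UMIs 8 were higher and 1 lower, as the median of all genes moved from -0.07 to 1.34, and without the library block only 1 of the 15 was called (adjusted p = 0.0655 for *Lamb2* and 0.277 for *Itgb8*). Without the female library 10 were called. *Itga6* (110.4, 134 and 113) and *Itgb4* (86.1, 93.2 and 115) stood between acinar-like and duct-like cells, and against all other epithelial cells gave log2 values of -0.15 ± 0.30 and 0.87 ± 0.48 (adjusted p = 0.792 and 0.272). Of the 9 basement membrane partners tested of 16, 5 were lower, such as *Col4a1* (-4.67) and *Col4a6* (-2.73), and *Nid2* was higher (1.39). Acinar-like cells themselves had low levels of nearly all chains, with *Lamb3* at 3.7, 0.451 and 0.833, *Lamb2* at 1.33, 0.677 and 1.25 and *Lamc1* at 3.7, 1.35 and 1.25, and their highest values were those of *Itgb1* (33.7, 35.9 and 37.9), *Itga6* (38.2, 36.1 and 32.5) and *Itga2b*. The free RNA held *Itgb1* at 35.7, 29.1 and 30.5 and *Itga6* at 17.8, 14.4 and 12.3. Tear-product genes made up 77.5%, 86.4% and 86.0% of the UMIs of this free RNA. A like level in both therefore does not tell whether acinar-like cells made *Itgb1*, which was not tested.

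**Figure D3:**
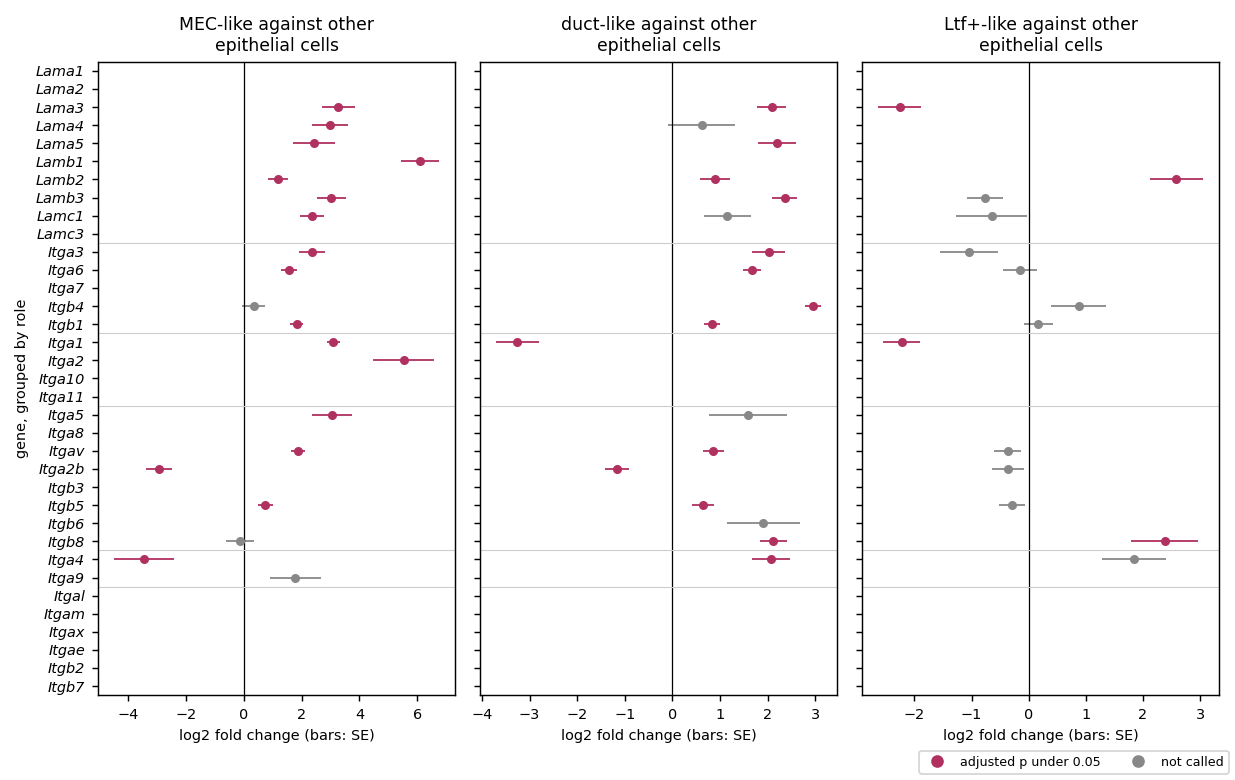
Log2 fold changes (horizontal axis, ± SE over 3 libraries) of tested genes in MEC, duct and *Ltf+* cells (3 panels), each against the other epithelial cells. Coloured points passed an adjusted p of 0.05, and laminin chains and laminin-binding integrins lie to the right in ducts and MEC while *Lama3* lies to the left in *Ltf+* cells.

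Fibroblast-like cells were set against the rest of the gland to find the chains of the stroma. They held *Lama2* and *Lama4* with *Lamb1*, *Lamb2*, *Lamc1* and *Lamc3*, and had at most 2 counts of *Lama3*, *Lamb3* and *Lama5*. *Lama2* stood at 436, 474 and 351 in fibroblast-like cells and at 0.649, 0.286 and 0.576 in all others (log2 fold change 9.2 ± 0.32, adjusted p = 7.55e-08). *Lamc3* stood at 153, 347 and 247 against 0.271, 0.143 and 0.144 (log2 fold change 9.5 ± 0.37, adjusted p = 1.22e-07). *Lamb1* stood at 416, 269 and 185 against 10.2, 5.72 and 3.31 (log2 fold change 5.17 ± 0.23, adjusted p = 2.25e-07). In no library did the fibroblast-like level of these 3 chains come near that of the other cells.

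Tests were run for 32 of the 38 genes, 12 were higher and 14 lower, against 18.1% and 22.5% (together 40.6%) of the 12749 genes tested (17 higher and 12 lower with total UMIs, where the median of all genes moved from -0.13 to 1.43). *Lamc1* (log2 fold change 4.36 ± 0.36, adjusted p = 1.14e-05), *Lama4* (log2 fold change 4.22 ± 0.33, adjusted p = 8.82e-06) and *Lamb2* (log2 fold change 3.18 ± 0.36, adjusted p = 8.56e-05) completed the stromal chains. *Lama3* had no count in 2884 fibroblast-like cells and was at least 37.8-fold lower (adjusted p = 9.25e-05), and *Lamb3* had 2 counts (ratio of other cells to fibroblast-like cells 120.2 (95% counting interval 33.2 to 994), adjusted p = 3.75e-06). *Lama5* had 1 count (ratio 47.1 (95% counting interval 8.4 to 1868), adjusted p = 1.94e-04). The receptors that were higher were *Itga11*, with 124 counts in fibroblast-like cells and 1 elsewhere (adjusted p = 1.12e-05, under the filter without the female library), *Itga8*, a receptor for nephronectin and other RGD ligands (log2 fold change 5.28 ± 0.32, adjusted p = 1.86e-06), and *Itgb1* (log2 fold change 0.90 ± 0.22, adjusted p = 0.00887). *Itga6* (log2 fold change -5.31 ± 0.57, adjusted p = 6.38e-05), *Itgb4* (log2 fold change -5.91 ± 0.53, adjusted p = 1.99e-05) and *Itgb8* (log2 fold change -2.74 ± 0.44, adjusted p = 8.26e-04) were lower, as was *Itga4* (log2 fold change -5.4 ± 0.58, adjusted p = 6.61e-05). The leukocyte integrins *Itgax* and *Itgb2* had 2 counts each and *Itgam* 1, and *Itga3* had 2. Their ratios of other to fibroblast-like cells were 70.7 (95% counting interval 19.5 to 585), 59.7 (95% counting interval 16.5 to 494), 44.9 (95% counting interval 8.0 to 1779) and 31.1 (95% counting interval 8.56 to 258).

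Of the 16 basement membrane partners, 13 were tested and 10 were higher and 2 lower in fibroblast-like cells, with *Nid1* (6.54), *Nid2* (4.27), *Hspg2* (4.05) and *Col4a1* (3.71) among the higher and *Col4a6* (-2.31) and *Agrn* (-1.09) as the lower. Of the 9 other integrin ligands tested of 10, 5 were higher, including fibronectin, *Fn1* (7.06), and vitronectin, *Vtn* (5.69), and 2 were lower. Of the 10 other laminin receptors 3 were higher and 4 lower, and of the 15 adaptors tested 4 were higher and 4 lower. Genes of the basement membrane were thus mostly higher. The counts of receptors and adaptors were small and went both ways, as did the shares of all genes tested, so they are not a result about these lists.

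Within the fibroblasts, subsets named from markers shared *Lama2* and differed in receptors for collagen and RGD ligands, as values that were not tested. *Lama2* stood at 534, 555 and 410.3 in parenchymal-like, 226, 240.1 and 246 in adventitial-like and 289, 266 and 325 in *Pdgfrl*-marked fibroblasts. *Lamc3* stood at 211, 411 and 348, and 18.8, 192 and 77.7 in parenchymal-like and adventitial-like cells, and had 3 counts in the *Pdgfrl*-marked cells. *Itga8* was higher in parenchymal-like cells (162, 48.9 and 44.6) than in adventitial-like cells (20.02, 8.0 and 0) in each library, and *Itga11* was the other way round (10.4, 2.45 and 0 against 95.4, 24 and 64.8). *Itgb5*, a vitronectin receptor subunit, stood at 466, 266 and 271 in *Pdgfrl*-marked cells, above parenchymal-like (108, 51.4 and 35.7) and adventitial-like cells (89.5, 24 and 64.8) in each library, on 69 counts.

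Endothelial-like cells, the lining of blood vessels, were set against the rest of the gland. They held *Lama4* and *Lama5*, the alpha chains of vascular basement membranes, together with *Lama3*, but hardly any *Lamb3*. *Lama4* stood at 114, 101 and 65 in endothelial-like cells and at 43.6, 15.6 and 8.05 in all others (log2 fold change 1.78 ± 0.30, adjusted p = 3.59e-06), *Lama5* at 41.4, 33.7 and 18.6 against 9.18, 2.48 and 2.82 (log2 fold change 2.3 ± 0.40, adjusted p = 7.30e-06), and *Lama3* at 56.5, 46 and 37.2 against 25.9, 8.13 and 5.79 (log2 fold change 1.45 ± 0.35, adjusted p = 6.31e-04). *Lamb3* stood at 0.56, 0 and 4.64 on 2 counts (ratio of other to endothelial-like cells 53.5 (95% counting interval 14.8 to 442), adjusted p = 2.55e-10). Markers of duct-like cells summed to 17.4 to 46.0 CPM in endothelial-like and 9380 to 10539 in duct-like cells. The part of duct RNA in the endothelial-like level of *Lama3* was not tested.

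Here 31 of the 38 genes were tested, 9 were higher and 15 lower, against 15.6% and 25.1% (together 40.7%) of the 12363 genes tested (14 higher and 13 lower with total UMIs, where the median of all genes moved from -0.17 to 1.22). *Itga1* stood at 391, 301 and 186 in endothelial-like cells and at 25.8, 19.6 and 17.5 in all others (log2 fold change 3.35 ± 0.25, adjusted p = 5.40e-15). *Itga5* (log2 fold change 2.04 ± 0.33, adjusted p = 1.92e-06), *Itga6* (log2 fold change 1.42 ± 0.22, adjusted p = 1.17e-06), *Itga3* (log2 fold change 1.32 ± 0.39, adjusted p = 0.00553), *Itgb1* (log2 fold change 0.83 ± 0.22, adjusted p = 0.00202) and the chain *Lamb2* (log2 fold change 0.96 ± 0.28, adjusted p = 0.00442) were higher. *Lama2*, *Lamc3* and *Itgax* had no count in 1784 endothelial-like cells and were at least 47.2-fold, 19.9-fold and 21-fold lower (adjusted p = 1.62e-12, 2.14e-09 and 3.54e-09). *Itgb8* had 1 count (ratio of other to endothelial-like cells 49.1 (95% counting interval 8.79 to 1942)) and *Itgb2* 3 (ratio 17.7 (95% counting interval 6.03 to 86)). *Itgb5* (log2 fold change -2.84 ± 0.38, adjusted p = 3.56e-08) and *Itgav* (log2 fold change -2.45 ± 0.39, adjusted p = 1.15e-06) were lower. Several low leukocyte and stromal genes were called only with the female library, without which the adjusted p was 0.548 for *Itga8*, 0.254 for *Itgam*, 0.0588 for *Itgal*, 0.125 for *Itga4* and 0.127 for *Itgb7*.

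Of the 13 basement membrane partners tested of 16, 5 were higher and 3 lower in endothelial-like cells, with *Npnt*, the ligand of integrin alpha 8 (4.44), *Col4a2* (2.47) and *Hspg2* (1.99) among the higher. Of the 15 adaptors tested of 16, 8 were higher and 3 lower, and *Parvb* (4.62) and *Lims2* (4.36) led them. Of the other integrin ligands, *Icam2* (5.86), *Vcam1* (2.82) and *Icam1* (2.16), which leukocyte integrins bind, were among the 4 that were higher, and 5 were lower.

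Between venous-like and capillary-like endothelial cells, 3 laminin chains and 2 integrin subunits were called. *Lama4* stood at 46.3, 53 and 9.92 in venous-like and 156, 126 and 126 in capillary-like cells (log2 fold change -1.61 ± 0.29, adjusted p = 1.63e-05), *Itga1* at 185, 212 and 139 against 497, 373 and 242 (log2 fold change -1.0 ± 0.20, adjusted p = 5.33e-05) and *Lamb1* at 36.6, 53 and 19.8 against 92.3, 85.8 and 77.6 (log2 fold change -1.07 ± 0.34, adjusted p = 0.0142). *Itgb4* went the other way, at 65.6, 106 and 79.4 in venous-like and 26.2, 40.4 and 29.1 in capillary-like cells (log2 fold change 1.52 ± 0.40, adjusted p = 0.00278). For these 4 genes, picked by their calls in the same libraries, all 3 libraries lay on the same side and the groups did not overlap. With DESeq2 *Itgb4* and *Lamb1* were not called (adjusted p = 0.0987 and 0.443). *Lamb2* (48.2, 35.3 and 49.6 against 106, 85.8 and 48.5) was called at -0.84 ± 0.31 (adjusted p = 0.0445), but male library 2 went the other way, and without male library 1 the adjusted p was 0.155. Its call was also lost with DESeq2 (adjusted p = 0.784), with no filter on low counts (0.173), with stricter cell limits (0.0755) and with more doublets removed (0.0577).

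Between the vessel types 8 of the 38 genes were tested, and 1 was higher and 4 lower in venous-like cells, against 12.1% and 8.35% (together 20.5%) of the 2874 genes tested. Without the library block 2 of the 8 were called (adjusted p = 0.0751 for *Itga1* and 0.0968 for *Lamb1*). Without the female library, *Lamb1*, *Itgb4* and *Lamb2* fell under the filter and 2 genes were called. *Itga6* (287, 221 and 188 in venous-like and 384, 242 and 301 in capillary-like cells) and *Itgb1* (314, 221 and 208 against 351, 257 and 262) did not pass the test. Of the partners, *Col4a1* (-0.78), *Col4a2* (-0.93) and *Hspg2* (-0.92) were lower and *Vcam1* (4.81) and *Icam1* (2.24) higher in venous-like cells. Arteriolar-like cells were few (44, 13 and 11 cells) and held *Lamb2* at 297, 646 and 200.1 and *Lama5* at 83.2, 258 and 200.1, on 31 and 10 counts.

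**Figure D4:**
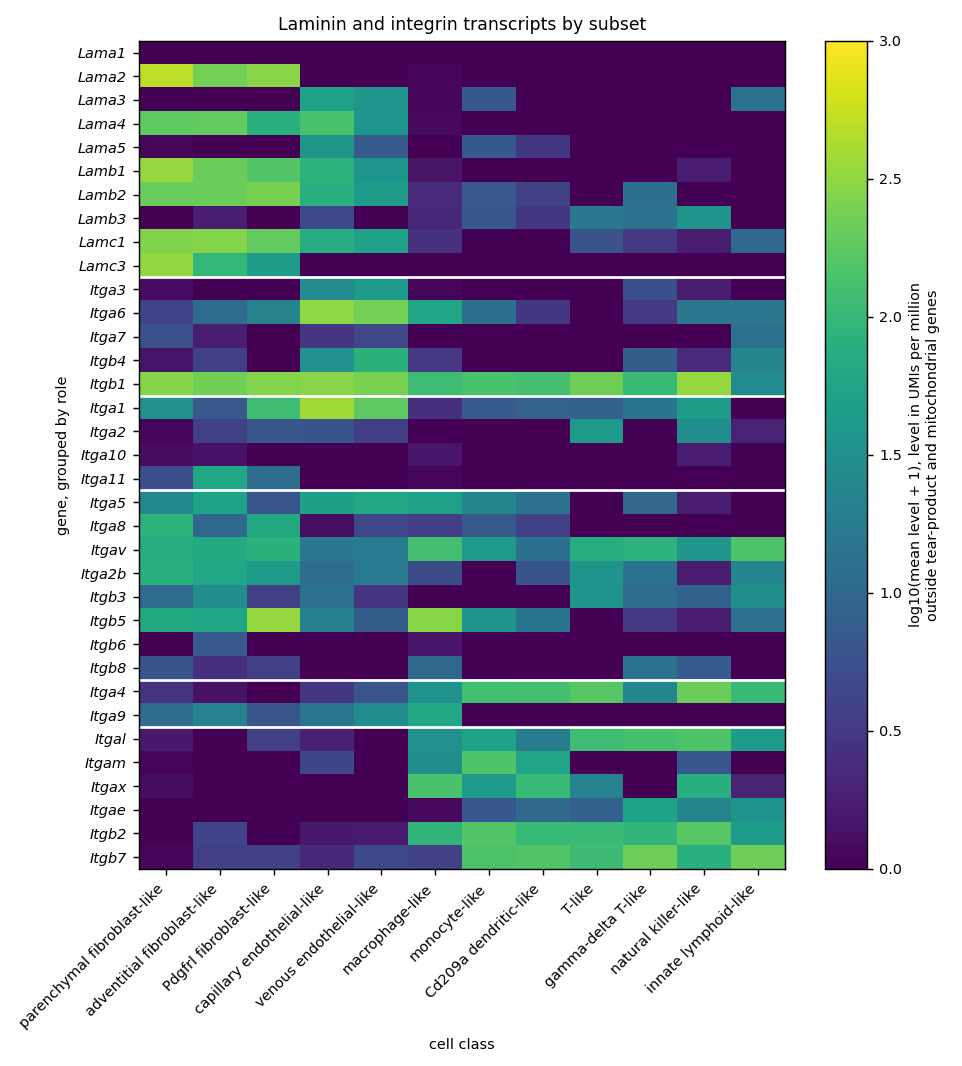
Mean level of the genes plotted in subsets of endothelial, fibroblast, myeloid and lymphoid cells (rows: genes; columns: subsets; colour: log-scaled CPM outside tear-product and mitochondrial genes, mean of 3 libraries). Lighter colours are higher levels. *Lama4* is lighter in the capillary than in the venous column, *Itga11* lightest in adventitial fibroblasts, and *Itga9* in macrophages.

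Mural-like cells, the pericytes and smooth muscle of the vessel wall, were few (50, 45 and 52 cells), and 1 UMI was worth 29.4 and 31.0 CPM in the male libraries. Among the 9 classes they held the highest mean levels of *Lama5*, *Lamb2*, *Itga7*, *Itga8* and *Itgb1*. *Itga7* stood at 289, 58.8 and 92.9 in mural-like cells and at 0.673, 0.397 and 0.413 in all others (log2 fold change 7.67 ± 0.72, adjusted p = 8.33e-24). *Lamb2* stood at 452, 265 and 341 against 40.4, 30.7 and 21.2 (log2 fold change 2.72 ± 0.44, adjusted p = 2.10e-08), *Lama5* at 154, 58.8 and 155 against 11.1, 3.58 and 2.62 (log2 fold change 3.57 ± 0.57, adjusted p = 2.25e-08), and *Itga1* at 366, 382 and 155 against 53.5, 30.1 and 21.9 (log2 fold change 2.28 ± 0.45, adjusted p = 9.66e-06). In every library these 4 genes were above the rest of the gland. *Itga10*, a collagen receptor subunit, was highest in mean level in this class, of the 9, on 6 counts (38.5, 58.8 and 0).

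Counts sufficed to test 29 of the 38 genes, 6 were higher and 4 lower, against 4.48% and 9.82% (together 14.3%) of the 11303 genes tested (8 higher and 1 lower with total UMIs, where the median of all genes moved from -0.66 to 0.88). *Itgb1* stood at 818, 676 and 402 (log2 fold change 1.53 ± 0.36, adjusted p = 3.24e-04) and *Itga8* at 135, 88.2 and 31 (log2 fold change 2.42 ± 0.61, adjusted p = 0.00103). *Itgb4* and *Lamb3* had no count in mural-like cells and were at least 2.65-fold and 2.46-fold lower (adjusted p = 0.00203 and 0.00337), *Itga6* had 1 count (ratio of other to mural-like cells 18.5 (95% counting interval 3.32 to 732), adjusted p = 1.18e-05) and *Lamb1* 2 (ratio 4.81 (95% counting interval 1.33 to 39.8), adjusted p = 0.0392). Most calls were lost without the female library: 2 of the 10 remained, and the adjusted p was 0.144 for *Lama5*, 0.0647 for *Itga1*, 0.274 for *Itga8*, 0.126 for *Itga6*, 0.398 for *Itgb4*, 0.443 for *Lamb3* and 0.687 for *Lamb1*, while *Itga7* fell under the filter. *Itga8* was also lost without male library 1 (adjusted p = 0.0612), with more doublets removed (log2 value 1.00, adjusted p = 0.591) and with only cells over 1000 UMIs and under 5% mitochondrial counts (1.43, adjusted p = 0.356). *Lamb1* was lost under both of these (adjusted p = 0.0697 and 0.167) and without male library 1 (adjusted p = 0.0508) or male library 2 (adjusted p = 0.118). It was also lost with DESeq2 (adjusted p = 0.233), total UMIs (0.429) or no library block (0.190). With total UMIs *Itgb4* and *Lamb3* were lost too (adjusted p = 0.0619 and 0.0745). *Itgb1* lost its call with the free RNA of barcodes of 10 to 100 UMIs subtracted (log2 value 1.36, adjusted p = 0.0557).

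Of the 6 endothelial markers, 5 had no count in mural-like cells, and the summed level was 0 to 29.4 CPM. The part of endothelial RNA in the mural levels of *Itga1*, *Lamb2* and *Lama5* was not tested. The 6 fibroblast markers summed to 289 to 588 CPM, with *Pdgfra* at 0. Of the 11 basement membrane partners tested of 16, *Ntn4* (4.38) and *Col18a1* (2.22) were higher and *Nid2* was lower. Of the 10 other laminin receptors 3 were higher and 2 lower, with *Bcam*, a receptor for *Lama5* laminins, at 2.74, and of the 15 adaptors tested 5 were higher and 1 lower, with *Lims2* at 3.05 and *Vcl* at 2.81.

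Myeloid-like cells, mostly macrophages, were set against the rest of the gland to describe the integrins of the immune compartment. Laminin chains were at or near 0 in these cells, and integrins of the leukocyte and RGD groups were high. *Itgax*, which encodes the alpha subunit CD11c, stood at 159, 112 and 97 in myeloid-like cells and at 5.92, 0.746 and 0.912 in all others (log2 fold change 5.96 ± 0.37, adjusted p = 7.01e-10). *Itgam*, which encodes the alpha subunit CD11b, stood at 48.9, 27.2 and 29.1 against 1.15, 2.99 and 1.98 (log2 fold change 4.41 ± 0.45, adjusted p = 3.57e-07), and their shared partner *Itgb2* at 108, 67.9 and 84.5 against 10.7, 2.24 and 3.35 (log2 fold change 4.3 ± 0.30, adjusted p = 3.57e-09). All 3 genes were above the other cells in each library.

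Among the 38 genes 29 were tested, 10 were higher and 16 lower in myeloid-like cells, against 20.5% and 29% (together 49.5%) of the 12616 genes tested (11 higher and 14 lower with total UMIs, where the median of all genes moved from -0.25 to 0.80). *Itgb5* stood at 362, 177 and 168 against 45.5, 27.2 and 21.9 (log2 fold change 3.01 ± 0.23, adjusted p = 8.44e-09), *Itga9*, a receptor for tenascin and VCAM1, at 79.8, 32.8 and 33.3 against 6.69, 2.39 and 1.82 (log2 fold change 3.95 ± 0.30, adjusted p = 1.06e-08), and *Itgav* at 108, 101 and 94.2 against 52.2, 29.1 and 24.9 (log2 fold change 1.7 ± 0.23, adjusted p = 8.36e-06). *Itga4* (log2 fold change 2.63 ± 0.33, adjusted p = 3.65e-06), *Itgal* (log2 fold change 2.49 ± 0.38, adjusted p = 3.60e-05) and *Itga5* (log2 fold change 2.43 ± 0.37, adjusted p = 3.42e-05) were also higher. Of the laminin chains, *Lamc3* had no count and was at least 54.4-fold lower (adjusted p = 3.99e-07), and *Lama2* (1 count), *Lama4* (2 counts) and *Lama3* (2 counts) had ratios of other to myeloid-like cells of 386 (95% counting interval 69.3 to 15271), 119.9 (95% counting interval 33.1 to 991) and 68.8 (95% counting interval 19 to 569). *Lamb1* (-6.19), *Lamb2* (-4.94), *Lamb3* (-4.86) and *Lamc1* (-4.52) were lower on 5 to 14 counts each, as were the receptors *Itgb4* (-5.26) and *Itga1* (-4.67), and *Itga3* had 1 count (ratio 75.9 (95% counting interval 13.6 to 3005)). *Lama5* had 2 counts and was called (adjusted p = 0.00121), but not without the female library (adjusted p = 0.223). *Itga6* (93.6, 13.6 and 44.3) was called lower (log2 fold change -0.92 ± 0.31, adjusted p = 0.0206), a direction that turned to 0.13 with total UMIs (adjusted p = 0.795), or -0.67 relative to the median of all genes. *Itgb1* was measured at 0.11 ± 0.21 (adjusted p = 0.701), and its CPM lay below the other cells in the female and above them in both male libraries.

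Lymphoid-like cells were compared in the same way. They held more *Itgb7*, the beta subunit of gut- and epithelium-homing receptors, *Itgal*, the alpha subunit of LFA-1, and *Itga4* than all other cells pooled. *Itgb7* stood at 151, 151 and 126 in lymphoid-like cells and at 4.68, 3.51 and 4.23 in all others (log2 fold change 4.98 ± 0.30, adjusted p = 1.31e-60), *Itgal* at 189, 72.4 and 111 against 11.2, 3.37 and 1.69 (log2 fold change 4.48 ± 0.31, adjusted p = 2.22e-46) and *Itga4* at 228, 96.5 and 116 against 23.5, 7.14 and 7.75 (log2 fold change 3.45 ± 0.27, adjusted p = 1.98e-35). *Itgae*, the alpha subunit that joins *Itgb7* in receptors for E-cadherin, stood at 11.5, 24.1 and 35.3 (log2 fold change 4.68 ± 0.72, adjusted p = 7.94e-10). These genes lay above all other cells pooled in each library. Single myeloid subsets did not all lie below: *Cd209a*-marked dendritic cells held *Itgb7* at 199.8, 116 and 140. Migratory dendritic cells held more *Itga4* than lymphoid-like cells in each library (values below).

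In this comparison 30 of the 38 genes were tested, 8 were higher and 18 lower in lymphoid-like cells, against 12.9% and 27.9% (together 40.8%) of the 11888 genes tested (10 higher and 16 lower with total UMIs, where the median of all genes moved from -0.30 to 0.48), and without the female library 15 were called. *Itgb2* (log2 fold change 2.92 ± 0.29, adjusted p = 9.90e-23) and *Itgb3*, the beta subunit of platelet and vitronectin receptors (log2 fold change 2.37 ± 0.62, adjusted p = 5.52e-04), were higher, as was *Itga2*, a collagen receptor subunit (log2 fold change 4.28 ± 0.73, adjusted p = 4.40e-08), on 45 counts with none in male library 2 and under the filter without the female library. The beta subunit *Itgb5* (log2 fold change -5.18 ± 0.53, adjusted p = 2.49e-21) and the laminin receptor *Itga6* (log2 fold change -3.94 ± 0.39, adjusted p = 5.34e-22) were lower. *Itga9* and *Lama5* had no count in 1554 lymphoid-like cells and were at least 7.9-fold and 4.68-fold lower (adjusted p = 2.75e-07 and 1.03e-04), but without the female library the adjusted p was 0.26 and 0.365, and that of *Lama3* (1 count, adjusted p = 3.48e-08) was 0.468. *Lamb1*, *Lama2* and *Lama4* had 1 count each (ratios of other to lymphoid-like cells 93.2 (95% counting interval 16.7 to 3685), 94.4 (95% counting interval 16.9 to 3729) and 58.6 (95% counting interval 10.5 to 2316)), as had *Lamc3* (ratio 39.8 (95% counting interval 7.13 to 1575)), while *Lamb2* had 2 (ratio 30.05 (95% counting interval 8.3 to 248)) and *Lamc1* had 5 (-4.26 on the log2 scale). None of the basement membrane partners was higher, and 11 of the 11 tested were lower.

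Myeloid-like and lymphoid-like cells divided the leukocyte integrins when set directly against each other. The myeloid-like arm was mostly macrophages, and single dendritic subsets held *Itgb7* or *Itga4* at about the lymphoid-like level or above (values below). Of the 38 genes, 13 were tested, 6 were higher in myeloid-like and 4 in lymphoid-like cells, against 19.2% and 15% (together 34.2%) of the 6722 genes tested. Higher in myeloid-like cells were *Itgb5* (log2 fold change 6.96 ± 0.49, adjusted p = 2.61e-07), *Itga6* (log2 fold change 3.32 ± 0.38, adjusted p = 2.18e-05), *Itga5* (log2 fold change 3.01 ± 0.57, adjusted p = 0.00116), *Itgam* (log2 fold change 2.91 ± 0.40, adjusted p = 9.53e-05) and *Itgax* (log2 fold change 1.68 ± 0.27, adjusted p = 2.85e-04), and *Itga9*, with 383 counts in myeloid-like and none in lymphoid-like cells, was at least 35.3-fold higher (adjusted p = 6.69e-06). Higher in lymphoid-like cells were *Itgae* (log2 fold change -3.14 ± 0.61, adjusted p = 0.00136), *Itgb7* (log2 fold change -2.64 ± 0.27, adjusted p = 6.55e-06), *Itgal* (log2 fold change -1.88 ± 0.27, adjusted p = 1.25e-04) and *Itga4* (log2 fold change -1.27 ± 0.22, adjusted p = 6.58e-04). For all 10 the 3 libraries lay on the same side without overlap. These genes were picked by their calls in the same libraries, so this is a description and no further support. The share of all genes tested that did not overlap was not counted. *Itgae* and *Itga6* were under the filter without the female library. *Itgb2*, the subunit they share, stood at 108, 67.9 and 84.5 in myeloid-like and 138, 78.4 and 106 in lymphoid-like cells and did not pass the test (-0.16 ± 0.20, adjusted p = 0.603).

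Between the immune subsets, for which no test was run, the levels of single integrins differed widely. *Itga9* stood at 86, 46.9 and 48.7 in macrophage-like cells and at 0, 0 and 0 in monocyte-like and 0, 0 and 0 in *Cd209a*-marked dendritic cells. *Itgb5* was ordered in the same way, with 388, 246 and 237 in macrophage-like cells against 0, 35 and 67.9 and 28.5, 12.2 and 0 in these cells. *Itgb7* had the opposite order, with 2.66, 3.23 and 2.12 in macrophage-like, 352, 52.5 and 33.9 in monocyte-like and 199.8, 116 and 140.2 in *Cd209a*-marked cells. Macrophage-like cells thus had the most *Itga9* and *Itgb5* and the least *Itgb7* of the 3 subsets in every library, although the monocyte-like cells numbered only 23, 70 and 86. *Itgam* was highest in monocyte-like cells (259, 69.97 and 119) and *Itga4* in migratory dendritic cells (326, 246 and 432). Among lymphoid subsets, *Itgae* stood at 52.5, 69.5 and 38.9 in gamma-delta T-like cells on 11 counts, the highest of the lymphoid subsets in the female library and male library 1 but not in male library 2, where innate lymphoid-like cells were higher (2.96, 25 and 75.8, 4 counts), and *Itgb7* stood at 276, 174 and 195 there and at 189, 200.3 and 265 in innate lymphoid-like cells. Natural killer-like cells held *Itga1* (99.9, 16.5 and 14.5), *Itga2* (69.3, 16.5 and 0), *Itgax* (153, 33 and 43.4) and *Itgb1* (489.5, 248 and 260.3). Innate lymphoid-like cells held *Itgb1* at 56.2, 25 and 0, the lowest of the lymphoid subsets in each library.

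**Figure D5:**
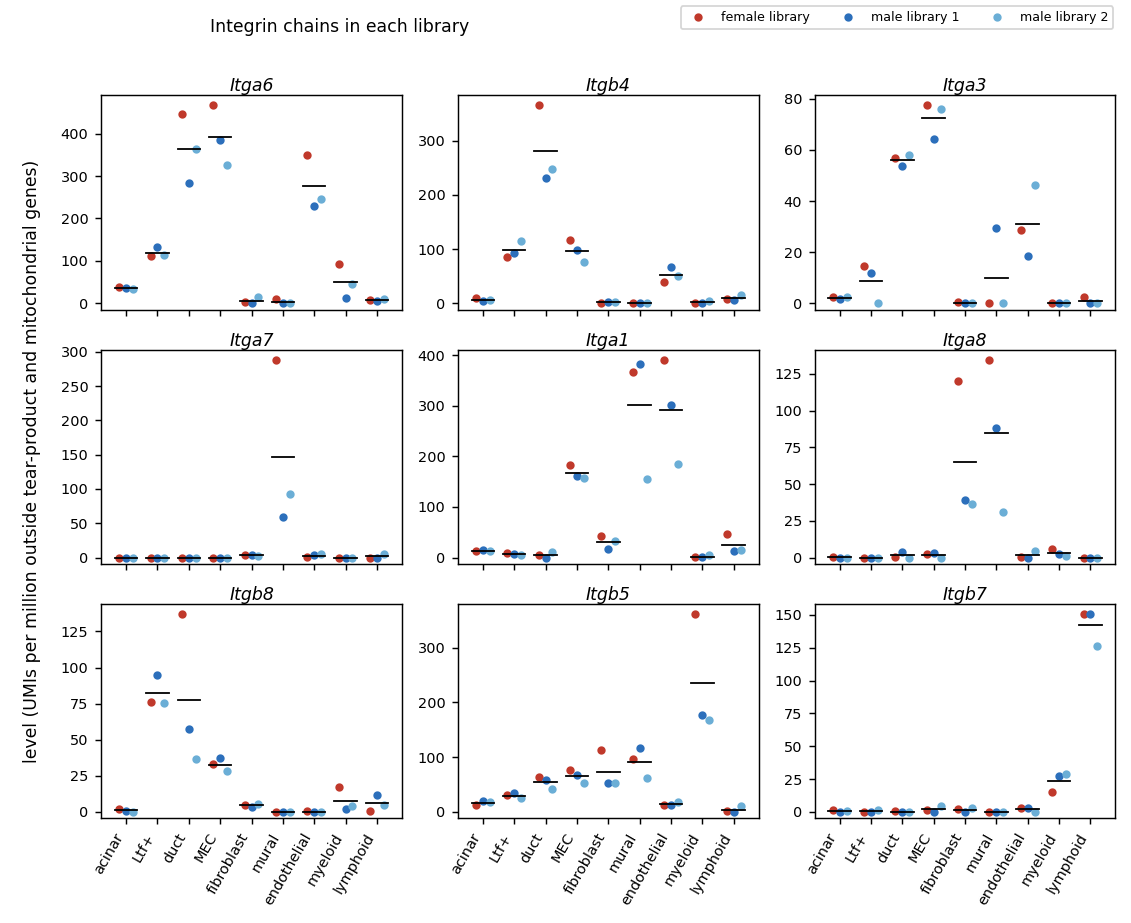
Levels of selected integrin subunits by class, 1 panel per gene (vertical axis: CPM outside tear-product and mitochondrial genes; points: the 3 libraries; lines: their mean). *Itgb4* and *Itga6* are high in ducts, *Itga7* in mural cells, *Itgb5* in myeloid cells and *Itgb7* in lymphoid cells.

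The order of classes was read last for receptors that several classes shared. *Itga3* was highest in mean level in MEC-like cells (77.5, 64.2 and 75.9), with duct-like cells (56.8, 53.8 and 58.1) next and below them in every library. *Itga6* was highest in MEC-like cells (467, 385 and 327), and duct-like (445, 284 and 364) and endothelial-like cells (350.4, 230.0 and 246) overlapped with them, while fibroblast-like cells, the highest class for 5 laminin chains, held it at 3.07, 1.7 and 14. *Itgb6*, an epithelial TGF-beta activator, was highest in duct-like cells at a low level (7.83, 7.68 and 10.6), and *Itgb3* in fibroblast-like cells (18.9, 13.6 and 14), beside lymphoid-like cells (25.4, 6.03 and 10.1). On the scale of all UMIs, tear products included, the highest class differed for 3 of the 36 genes, with *Itga1* highest in endothelial-like, *Itgb2* in myeloid-like and *Itgb8* in duct-like cells, and with free RNA subtracted it differed for none.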

How the data were processed

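scRNAseq libraries were aligned and counted by the authors with Cell Ranger (6.1.2, genome mm10, per the submitters' processing notes), and the deposited matrices hold raw UMI counts per gene and barcode, both for called cells and for all barcodes. No sample column was left aside. Barcodes were kept above 500 UMIs and 200 genes and below 15% mitochondrial UMIs, and doublets were removed with scrublet (scanpy 1.11.5) up to 0.8% per 1000 barcodes. Cells were integrated across libraries (Seurat 5.3.0, sctransform 0.4.2, 3000 features, 30 dimensions) and clustered at resolution 1. Clusters were named from marker lists, by thresholds set after the clusters were seen, and mast cells and unnamed clusters were not described.

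UMIs were summed per library and arm, and edgeR 4.0.16 (R 4.3.3) was run with its quasi-likelihood test, TMM scaling, the default filter on low counts and the library as a block. The p-values were adjusted over all genes (Benjamini-Hochberg). The block was used because both arms of a comparison came from 1 cell suspension per library: the correlation of the arms' deviations was 0.23 to 0.93 over 36 pairs. A fold against an arm with no count was bounded with 3 counts over the 3 libraries, and an arm of 1 to 3 counts was given as a ratio with its 95% interval, both of which cover counting error only. DESeq2 1.42.0, other scalings, filters, doublet and free RNA settings, and each library left out were the alternatives. The test was checked on simulated counts. The members and lists were chosen with earlier results of these data known. Named genes were at most 15 per comparison, called and with at least 30 UMIs, ordered by size of change, and members called on fewer UMIs or not called could be named with their values. The values of 1 member are not reported here.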

Additional observations from a re-analysis of the deposited data

Results flagged for a closer look

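For 16 values the log2 ratio of CPM between the arms lay on one side of 0 in the female library and on the other in both male libraries. The log2 fold changes given below are scaled by TMM, which puts 0 elsewhere, so their sign need not be that of the CPM ratios. For *Itgb5* in mural-like cells the log2 CPM ratios were -0.11, 1.41 and 0.77. None of them was called over the 3 libraries, the difference between the female and the male libraries was not tested, and sex cannot be told apart from core and preparation day. Against all other cells, the log2 fold changes over the 3 libraries were 0.14 for *Lama5* in epithelial cells, -0.25 for *Itga9* in fibroblast-like cells, -0.24 for *Itgb5* in mural-like cells, 0.11 for *Itgb1* in myeloid-like cells and -0.53 for *Itgam* in lymphoid-like cells. In endothelial-like cells they were 0.45 for *Lamb1*, -0.080 for *Itga7* and 0.048 for *Itgb4*, each below the other cells in the female library and above them in both male libraries. The endothelial-like level of *Itga7* rested on 2, 1 and 1 UMIs and the lymphoid-like level of *Itgam* on 8, 1 and 1. At such counts the side on which a library lay can turn on 1 UMI.

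Within the epithelium, *Itgb8* in MEC-like cells gave -0.13. In *Ltf+*-like cells against the other epithelial cells the log2 fold changes were -0.77 for *Lamb3*, -0.15 for *Itga6*, 0.87 for *Itgb4*, 0.17 for *Itgb1*, -0.37 for *Itgav*, -0.36 for *Itga2b* and -0.29 for *Itgb5*. In 6 of these 7 genes, all but *Itga2b*, the CPM of *Ltf+*-like cells was below that of the other epithelial cells in the female library and above it in both male libraries. For *Itga2b* the log2 CPM ratio in male library 1 was only -0.005. The other epithelial cells held 1079 duct-like cells in the female library and 325 and 271 in the male libraries, and the part of this makeup in the difference was not tested.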

How the results depend on the processing

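Of the 135 called values chosen by the rule for named genes, 96 kept their direction and call under every alternative that gave a value, and 39 lost the call or turned under at least 1. Of the 1847 values these alternatives gave, 1766 kept direction and call, 80 kept the direction only and 1 turned, the log2 fold change of *Itga2b* in duct-like cells with total UMIs (1.15). Among the called values outside these 135, 4 turned with total UMIs: in epithelial cells *Itga6* (-0.81), *Itga2b* (-0.88) and *Lama3* (-0.05), and in myeloid-like cells *Itga6* (0.13). Leaving out the female library cost most calls, 19 of the 123 values it gave. The rest of the 135 gave no value there, and a missing value was not counted as a lost call. The cause of these losses was not tested.

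With the library block taken out of the pairing, 13 of 135 calls were lost, and the number of genes called went from 5 to 1 for *Ltf+*-like and from 5 to 2 for venous-like cells, and changed by less than 1.5 times elsewhere. For *Ltf+*-like cells it was 9 with total UMIs, 9 with no filter on low counts and 5 to 10 with 1 library left out. For venous-like cells it was 2 with DESeq2, 2 with free RNA subtracted, 2 with the free RNA of 500 to 1000 UMI barcodes subtracted (chosen after seeing the data) and 2 to 6 with 1 library left out. For myeloid-like against lymphoid-like cells it went from 10 to 19 with no filter. With 1 library left out it was 2 to 10 for mural-like cells (10 with all) and 15 to 25 for lymphoid-like cells (26 with all). Clusters at resolution 0.5 or without integration were not run for venous-like and capillary-like cells, since these were not named there. As for depth, 1 UMI was worth 29.4 and 31.0 CPM in mural-like cells of the male libraries.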

Other observations

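Some counts fell outside the comparisons and are given as values. *Lamb3*, a chain of epithelial laminin, had 30 counts in lymphoid-like cells, of which 25 were in natural killer-like cells, at 42.8, 33 and 28.9 CPM. *Itgb3* stood at 53.2, 0 and 37.9 in innate lymphoid-like cells. *Itga6* stood at 100.1, 12.9 and 59.3 in macrophage-like cells and at 0, 35 and 0 in monocyte-like cells.

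The free RNA held 2021 counts of the 38 genes, of which 555 were of *Itga2b*. *Itgad* had 16 counts and *Itgb2l* 2 over all 18344 cells kept, too few to place in a class.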
